A study of Mus musculus with 5 samples.

Results

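Glycolysis and hypoxia response genes were examined on 5 Affymetrix arrays of CD4+ T cells from a mouse model of colitis. The set held 38 genes listed by name for their known roles in glucose transport, glycolysis, lactate handling, pyruvate entry into mitochondria, oxygen sensing and the transcriptional response to low oxygen. Of these, 35 were measured among 18193 genes, each through the brightest (by mean over the 5 arrays) of the probe sets that carry its symbol alone. Gpi1, the glucose phosphate isomerase, and Eno1, an enolase, were not matched through the annotation table used here. Bnip3l, a mitophagy receptor, was matched only by probe sets shared with the pseudogene Bnip3l-ps and was left out. Ero1a was listed under its older symbol Ero1l.

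The study compared CXCR6+ and CXCR6- cells, which the labels call CXCR6 Hi and CXCR6 Lo, to characterize CD4+ T cells carrying the receptor of the chemokine CXCL16. Both subsets were CD3+ CD4+ T cells sorted from the colonic lamina propria (LP) of immunodeficient Rag1-/- mice with colitis, after they had received CD4+ CD45RBhigh T cells of BALB/c mice (CXCR6+, n = 2 arrays, CXCR6-, n = 2 arrays). The time from transfer to isolation was 6 weeks by a note on these arrays and 8 weeks by the general isolation protocol, and which holds was not settled. The hosts lack T and B lymphocytes of their own. The CD45Rb Hi array held naive CD4+ CD45RBhigh T cells that had not been transferred (n = 1 array), which the methods take from the spleen of BALB/c mice, while the labels name both spleen and the LP of healthy mice. Mice were used at 8 to 12 weeks of age, and the number of mice behind each array is not stated. The LP tissue was digested with collagenase and the spleen was broken up mechanically, so tissue, digestion, colitis and transfer cannot be told apart in any comparison of LP with naive cells. The poly-A controls, bacterial transcripts spiked into RNA to follow its labelling, also differed. On the LP arrays Dap was at 64.6 to 102, Thr at 17.1 to 28, Lys at 8.23 to 15.7 and Phe at 8.08 to 13.8, and on the naive array all 4 lay between 0.194 and 0.379. A difference in how the RNA was handled or labelled therefore cannot be told apart from the groups either.

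Glycolysis splits glucose into pyruvate, which is either reduced to lactate by lactate dehydrogenase and exported, or passed to mitochondria through the pyruvate dehydrogenase complex, whose kinases switch it off. When oxygen is scarce, prolyl hydroxylases no longer mark the transcription factor HIF-1α for destruction, and it then pairs with ARNT and binds the core sequence ACGTG or GCGTG in genes for glucose uptake, glycolytic enzymes, pyruvate dehydrogenase kinases and blood vessel growth. Activated T cells raise glucose uptake and glycolysis, and resting naive T cells rely mainly on oxidative metabolism.

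The signals are on a linear scale on which the median probe set of each array is 1, and they show the abundance of a probe set relative to that array, so levels of different genes were not compared. In bulk RNA, fewer cells of a type and less RNA per cell cannot be told apart. Cxcr6 had signals of 184 and 225 in CXCR6+ cells, 58.1 and 25.3 in CXCR6- cells and 10.5 in naive cells. The summed signal of 8 T cell markers was 401 to 609 in LP and 571 in naive cells, with 0 higher and 2 lower in LP by limma. Of 4 naive T cell markers, 1 was higher and 1 lower in LP, with sums of 397 to 465 in LP and 308 in naive cells. Lef1 was at 8.80 to 15 in LP and 99.8 in naive cells, and Ccr7 at 13.6 to 31.9 and 51.8. In contrast, Il7r was at 308 to 369 and 125, and Klf2 at 52.3 to 72.4 and 31.5. The Gapdh 3′ to 5′ control ratio, a measure of RNA integrity that rises as RNA is degraded, was 2.81 to 6.96 in LP and 1.51 in naive cells. Of 11 fibroblast and smooth muscle markers, 7 were higher in LP (sums of 103 to 165 against 11.5), and of 10 immediate early genes, which tissue handling can induce, 7 were higher (478 to 615 against 201). The naive array in turn held more signal of 5 B cell markers (49.3 against 2.08 to 3.48) and of 6 red blood cell genes (108 against 2.30 to 3.06), of which 3 and 4 were lower in LP and 1 each was higher. Of 15 epithelial markers, 4 were higher and 1 was lower in LP. All 4 LP arrays lay above the naive array for 11 of the 15, such as Krt8 at 9.36 to 29.6 against 0.387, and the naive sum of 108 (51.5 to 108 in LP) was mostly Car1, at 85.2 against 7.80 to 16. Of 11 myeloid markers, 3 were higher and 4 lower, with sums of 279 to 354 in LP and 378 in naive cells. Cd14 was at 58.5 to 93 against 1.95, and S100a9 at 3.12 to 5.80 against 114. Sums of 6 endothelial markers were 4.81 to 6.43 in LP and 11.5 in naive cells (1 higher and 1 lower), those of 4 platelet markers 14 to 21.2 and 30.2 (2 lower), and those of 14 cell division genes 454 to 630 and 594 (1 higher and 5 lower). No listed marker had a signal of 0. Their part in the differences from naive cells was not tested.

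Promoters are shown for 5 of the 8 genes that differed between LP and naive cells. They let the letters HIF is known to bind be seen beside the signals. Each of the 5 has a single entry in the table used. Eno3 also has a single entry, with 1 GCGTG, and is not shown. Each line gives the 250 bases before the transcription start from RefSeq, build GRCm38.p6, written 5′ to 3′ on the gene's strand, with ACGTG or GCGTG in capitals on either strand (CACGT is ACGTG on the other strand). The windows are Pgk1 at chrX:106186850-106187099 on the plus strand, Hk2 at chr6:82774455-82774704 on the minus strand, Hif1a at chr12:73907617-73907866 on the plus strand, Egln3 at chr12:54203875-54204124 on the minus strand and Ldhb at chr6:142507958-142508207 on the minus strand.
Pgk1: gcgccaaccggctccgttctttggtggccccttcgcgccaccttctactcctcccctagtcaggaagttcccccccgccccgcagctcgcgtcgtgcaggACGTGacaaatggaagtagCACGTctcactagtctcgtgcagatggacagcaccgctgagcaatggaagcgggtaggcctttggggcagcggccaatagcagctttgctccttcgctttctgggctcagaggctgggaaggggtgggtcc
Hk2: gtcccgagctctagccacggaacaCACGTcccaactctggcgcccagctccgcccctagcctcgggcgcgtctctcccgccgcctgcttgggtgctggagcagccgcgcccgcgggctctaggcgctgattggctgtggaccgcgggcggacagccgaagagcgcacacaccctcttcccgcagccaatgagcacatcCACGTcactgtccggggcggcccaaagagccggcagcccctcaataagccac
Hif1a: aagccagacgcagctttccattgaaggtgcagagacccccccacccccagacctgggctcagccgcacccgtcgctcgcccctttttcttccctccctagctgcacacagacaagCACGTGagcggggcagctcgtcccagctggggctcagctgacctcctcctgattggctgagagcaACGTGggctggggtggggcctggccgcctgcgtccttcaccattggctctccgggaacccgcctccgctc
Egln3: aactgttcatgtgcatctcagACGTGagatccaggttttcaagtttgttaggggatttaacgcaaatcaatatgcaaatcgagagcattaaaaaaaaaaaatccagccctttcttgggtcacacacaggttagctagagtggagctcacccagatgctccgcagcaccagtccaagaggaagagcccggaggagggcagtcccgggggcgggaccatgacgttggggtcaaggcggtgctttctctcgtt
Ldhb: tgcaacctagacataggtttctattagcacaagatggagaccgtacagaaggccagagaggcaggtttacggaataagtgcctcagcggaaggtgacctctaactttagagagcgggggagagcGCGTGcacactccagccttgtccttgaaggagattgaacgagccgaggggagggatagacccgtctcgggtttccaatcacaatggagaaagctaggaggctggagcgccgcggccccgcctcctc

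Pgk1 and Hk2 each hold ACGTG at 2 places. Hif1a has 3 matches, of which 2 lie on opposite strands of a single CACGTG, the palindrome that MYC is known to bind as well. The Hif1a window lies inside the gene, which runs from 73901324 to 73947554 in RefSeq, so its start is not the outermost one. Egln3 has 1 ACGTG, and Ldhb has 1 GCGTG and no ACGTG. In windows of 300 bases, from 250 before to 50 after the start, ACGTG or GCGTG on either strand was found in 39 of the 48 promoters of these genes (81.2%) and in 14380 of all 32851 promoters (43.8%). ACGTG alone was in 29 of 48 (60.4%) against 19.6% of all promoters, and ACGTG outside CACGTG was in 26 of 48 (54.2%) against 13.6%. By gene, 32 of the 34 with a promoter entry had at least 1 match, and Slc2a3 had no entry. Several of the genes were listed as HIF targets, some promoters of a gene overlap, and a match is a description of the letters and not of binding. All 8 genes that passed the test against naive cells held a match in at least 1 promoter, the 3 lower genes included.

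Between LP and naive cells, the genes of the set moved in both directions. Pgk1, a glycolytic kinase that makes ATP, Hk2, the inducible hexokinase, Hif1a, the oxygen-regulated subunit of HIF-1, Egln3, a prolyl hydroxylase that is itself a HIF target, and Vegfa, the vascular growth factor, were higher in LP cells. Ldhb, the lactate dehydrogenase subunit that favours pyruvate, Pfkm, the muscle-type phosphofructokinase, and Eno3, the muscle-type enolase, were lower. Thus 5 of the 35 genes were higher and 3 were lower at an adjusted p under 0.05 (limma, Benjamini-Hochberg over all genes), and 27 did not pass. Over all genes 33.9% passed, 15.1% higher and 18.8% lower, so both counts of the set lay near or under the background. The median log2 difference of the set was 0.10, and that of all genes was -0.14. The naive array has no replicate and was assumed to vary like the LP arrays. Leaving out a CXCR6+ array leaves 1 array in that subset. Hk2, Hif1a, Ldhb, Pfkm and Eno3 then lost their calls, whichever array was left out. Without either of the CXCR6- arrays, 0 of the 35 and 0 of all 18193 genes passed, and the adjusted p of these 8 genes then lay between 0.0509 and 0.0855, while all kept their direction.

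**Figure D1:**
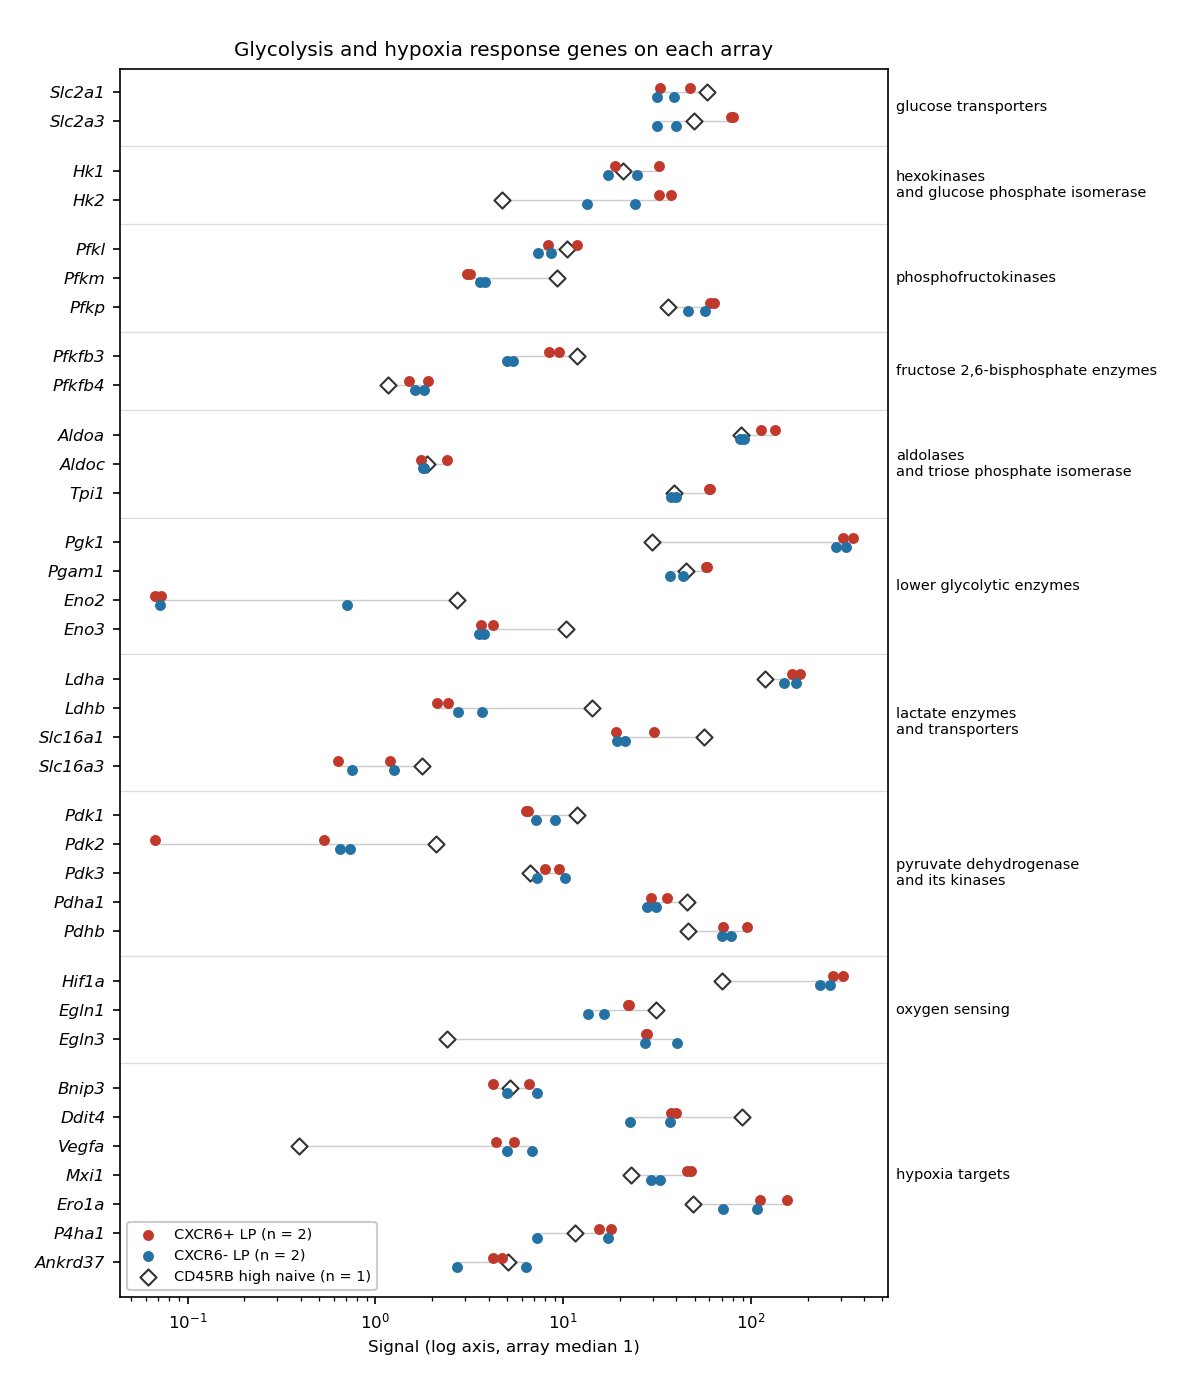
Signal of each of the 35 measured genes on each array (horizontal log axis, array median 1), grouped by role. Red points are the 2 CXCR6+ arrays, blue points the 2 CXCR6- arrays and open diamonds the naive array, and the grey line spans the 5 values. For Pgk1, Hif1a, Egln3 and Vegfa the 4 LP arrays lie together far to the right of the naive array, and for Ldhb far to the left.

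Without regard to the test, all 4 LP arrays lay above the naive array for 12 of the 35 genes and below it for 13, and the remaining 10 had the naive array within the LP range. Over all genes the shares were 35% above and 40.9% below. The LP arrays of the set were close to each other, with a median absolute log2 difference of 0.21 between the CXCR6+ arrays and 0.27 between the CXCR6- arrays, against 0.37 and 0.34 over all genes. The mean signal was over 4, on the scale with an array median of 1, for 30 of the 35. The figures over all genes include genes of any signal, and genes of like signal were not compared.

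Neither of the 2 facilitative glucose transporters of the set passed the test between LP and naive cells. Slc2a1 (GLUT1), the transporter that activated T cells are known to raise, had signals of 47.0 and 32.7 in CXCR6+, 38.7 and 31.6 in CXCR6- and 58.2 in naive cells. All 4 LP arrays lay below the naive array, with a log2 difference of -0.65 (SE 0.34, adjusted p = 0.217). Slc2a3 (GLUT3), a high-affinity transporter, had signals of 80.5 and 78.0 in CXCR6+, 39.8 and 31.6 in CXCR6- and 49.5 in naive cells. The naive array lay between the subsets, and the log2 difference of LP from naive cells was 0.10 (SE 0.27, adjusted p = 0.80). Outside the set, the transporter gene Slc2a6 was higher in LP cells, at 4.35 to 10.4 against 1.45 (log2 difference 2.20, adjusted p = 0.0236). Slc2a4 also passed as higher, on signals below the array median, while Slc2a2 and Slc2a8 did not pass.

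The hexokinases, which trap glucose in the cell by phosphorylation, differed from each other. Hk2 had signals of 32.3 and 37.6 in CXCR6+, 13.4 and 24 in CXCR6- and 4.73 in naive cells. Every LP array lay above the naive array, and the LP mean was 5.29-fold higher (log2 difference 2.40, SE 0.43, adjusted p = 0.028). Hk1, the constitutive hexokinase, had LP signals of 17.2 to 32.3 around the naive signal of 20.7, with a log2 difference of 0.12 (adjusted p = 0.855). Its other probe set, at 0.569 to 1.91 in LP and 4.22 in naive cells, gave -1.94 and did not pass either.

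Phosphofructokinase commits glucose to glycolysis and is built from liver, muscle and platelet-type subunits. The muscle-type Pfkm had signals of 3.07 and 3.19 in CXCR6+, 3.60 and 3.84 in CXCR6- and 9.29 in naive cells. It was 2.73-fold higher in naive cells, with all 4 LP arrays below (log2 difference -1.45, SE 0.24, adjusted p = 0.0249). The platelet-type Pfkp was at 45.9 to 63.3 in LP and 36.2 in naive cells (log2 difference 0.63, adjusted p = 0.149), and the liver-type Pfkl was at 7.35 to 11.8 and 10.5 (log2 difference -0.25, adjusted p = 0.592). Neither passed. Pfkfb3, the enzyme that makes the phosphofructokinase activator fructose 2,6-bisphosphate, had signals of 8.38 and 9.53 in CXCR6+, 5.40 and 5.02 in CXCR6- and 11.9 in naive cells. All LP arrays lay below the naive array, but the difference did not pass (log2 difference -0.80, SE 0.25, adjusted p = 0.083). On its other probe set, near the array median, all LP arrays lay above the naive array. The signals were 0.965 to 1.27 and 0.949 (log2 difference 0.28), and this did not pass either. Pfkfb4, a relative of Pfkfb3, was at 1.5 to 1.91 in LP and 1.17 in naive cells (log2 difference 0.54, adjusted p = 0.218).

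In the middle of the pathway, the genes for aldolase and triose phosphate isomerase showed no difference from naive cells that passed. Aldoa, the main aldolase, was at 87.0 to 134 in LP and 88.0 in naive cells (log2 difference 0.25, SE 0.26, adjusted p = 0.489). Tpi1, the triose phosphate isomerase, was at 37.6 to 60.3 and 38.9 (log2 difference 0.31, SE 0.24, adjusted p = 0.364). Aldoc was at 1.74 to 2.39 and 1.89 (log2 difference 0.02, adjusted p = 0.962). In each of the 3 the naive array lay within the LP range.

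Pgk1 had the largest difference of the lower glycolytic enzymes that passed. Its signals were 308 and 349 in CXCR6+, 320 and 283 in CXCR6- and 29.6 in naive cells. The subsets overlapped each other and both lay far above the naive array, and the LP mean was 10.6-fold higher (log2 difference 3.41, SE 0.26, adjusted p = 0.0119). Pgam1, the phosphoglycerate mutase that acts next, was at 57.3 and 58.4 in CXCR6+, 43.6 and 37 in CXCR6- and 45.2 in naive cells (log2 difference of LP from naive 0.09, adjusted p = 0.798). Eno3 had signals of 3.67 and 4.24 in CXCR6+, 3.80 and 3.55 in CXCR6- and 10.3 in naive cells. It was 2.71-fold higher in naive cells (log2 difference -1.44, SE 0.25, adjusted p = 0.0273). Eno2, the neuronal-type enolase and a known hypoxia target, had signals of 0.072 and 0.067 in CXCR6+, 0.071 and 0.708 in CXCR6- and 2.71 in naive cells. All LP arrays lay below the naive array and below the array median, but 1 CXCR6- array stood well above the other 3, and the difference did not pass (log2 difference -4.44, SE 1.39, adjusted p = 0.0839). With signals under 1 raised to 1 it was -1.44. All 4 LP arrays then had the same value, so the p-value of that setting rests on no spread and is not given. With 1 added to each signal the difference was -1.63 and passed (adjusted p = 0.00501).

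The subunits of lactate dehydrogenase had different values. Ldha, the subunit that favours lactate, had signals of 165 and 182 in CXCR6+, 174 and 149 in CXCR6- and 118 in naive cells. All LP arrays lay above the naive array, the difference did not pass (log2 difference 0.50, SE 0.26, adjusted p = 0.213), and it was -0.08 after quantile normalization. Ldhb had signals of 2.42 and 2.12 in CXCR6+, 2.75 and 3.70 in CXCR6- and 14.2 in naive cells. It was 5.28-fold higher in naive cells (log2 difference -2.40, SE 0.30, adjusted p = 0.017), with no LP array near the naive array. The lactate transporters did not pass. Slc16a1 (MCT1) was at 19.2 to 30.5 in LP and 55.9 in naive cells (log2 difference -1.34, SE 0.37, adjusted p = 0.0644), and the hypoxia-induced exporter Slc16a3 (MCT4) was near the array median at 0.631 to 1.25 and 1.78 (log2 difference -0.95, adjusted p = 0.248).

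None of the genes at the entry to mitochondria passed on the probe sets used, and the calls of Pdk1 and Pdk2 changed with the processing. Pdk1, the kinase of pyruvate dehydrogenase best known as a HIF-1 target, had signals of 6.47 and 6.32 in CXCR6+, 7.19 and 8.99 in CXCR6- and 11.9 in naive cells. All LP arrays lay below the naive array (log2 difference -0.73, SE 0.27, adjusted p = 0.117). With its probe sets averaged the difference was -3.20 and passed (adjusted p = 0.0197), and it also passed with the filter on low signals, with 1 added to each signal and with a variance trend (adjusted p = 0.0415, 0.0324 and 0.0342). Pdk2 was at 0.534 and 0.067 in CXCR6+, 0.647 and 0.735 in CXCR6- and 2.10 in naive cells (log2 difference -2.54, SE 1.26, adjusted p = 0.198), and its low signals spread widely. With signals under 1 raised to 1 the difference of Pdk2 was -1.07. All 4 LP arrays then had the same value, so the p-value of that setting rests on no spread and is not given. With 1 added to each signal the difference of Pdk2 was -1.08 and passed (adjusted p = 0.0132). Pdk3 was at 7.22 to 10.2 in LP and 6.66 in naive cells (log2 difference 0.38, adjusted p = 0.42). On the probe sets used, the E1 subunit genes of the complex differed in sign. Pdha1 was at 28.0 to 35.7 in LP and 45.7 in naive cells (log2 difference -0.56, adjusted p = 0.189). Pdhb was at 70.0 to 95.4 and 46.3 (log2 difference 0.75, adjusted p = 0.134). The other probe set of Pdha1 gave -0.17, and that of Pdhb, near the array median, gave -0.49, so the signs were alike there.

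Of the 3 genes of oxygen sensing, 2 were higher in LP cells. Hif1a had signals of 274 and 310 in CXCR6+, 264 and 233 in CXCR6- and 70.4 in naive cells. It was 3.82-fold higher in LP cells (log2 difference 1.93, SE 0.26, adjusted p = 0.0181). HIF-1α is controlled largely through protein stability, which these arrays do not measure. Egln3 (PHD3) had signals of 27.8 and 27.7 in CXCR6+, 40.3 and 27.3 in CXCR6- and 2.40 in naive cells. It was 12.7-fold higher in LP cells (log2 difference 3.66, SE 0.33, adjusted p = 0.0127). Egln1 (PHD2), the main prolyl hydroxylase of HIF-1α, was at 22.0 and 22.3 in CXCR6+, 13.6 and 16.5 in CXCR6- and 31.1 in naive cells. All LP arrays lay below the naive array, and the difference did not pass (log2 difference -0.77, SE 0.26, adjusted p = 0.0983).

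Of 7 further hypoxia targets, only Vegfa passed. Its signals were 4.41 and 5.48 in CXCR6+, 5.01 and 6.84 in CXCR6- and 0.392 in naive cells. All LP arrays lay far above the naive array (log2 difference 3.77, SE 0.33, adjusted p = 0.0123). The naive signal lay below the array median, so the size of the difference depends on how low signals are treated, and with signals under 1 raised to 1 it was 2.42 (adjusted p = 0.0393). Ero1a, an oxidase of protein folding, was at 112 and 155 in CXCR6+, 108 and 71.1 in CXCR6- and 48.8 in naive cells (log2 difference 1.14, SE 0.39, adjusted p = 0.101). Mxi1, a MYC antagonist, was at 45.6 and 48.0 in CXCR6+, 32.7 and 29.2 in CXCR6- and 23.0 in naive cells (log2 difference 0.73, SE 0.25, adjusted p = 0.0977). In both genes all LP arrays lay above the naive array without passing. Ddit4 (REDD1), an inhibitor of mTORC1, had the opposite pattern, at 37.3 and 40 in CXCR6+, 37 and 22.6 in CXCR6- and 89.2 in naive cells (log2 difference -1.42, SE 0.38, adjusted p = 0.0608). The mitophagy receptor Bnip3 (LP 4.25 to 7.29, naive 5.21), the collagen prolyl hydroxylase P4ha1 (LP 7.21 to 18, naive 11.6) and Ankrd37 (LP 2.73 to 6.32, naive 5.10) had the naive array within the LP range. Their adjusted p-values were 0.84, 0.768 and 0.758.

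**Figure D2:**
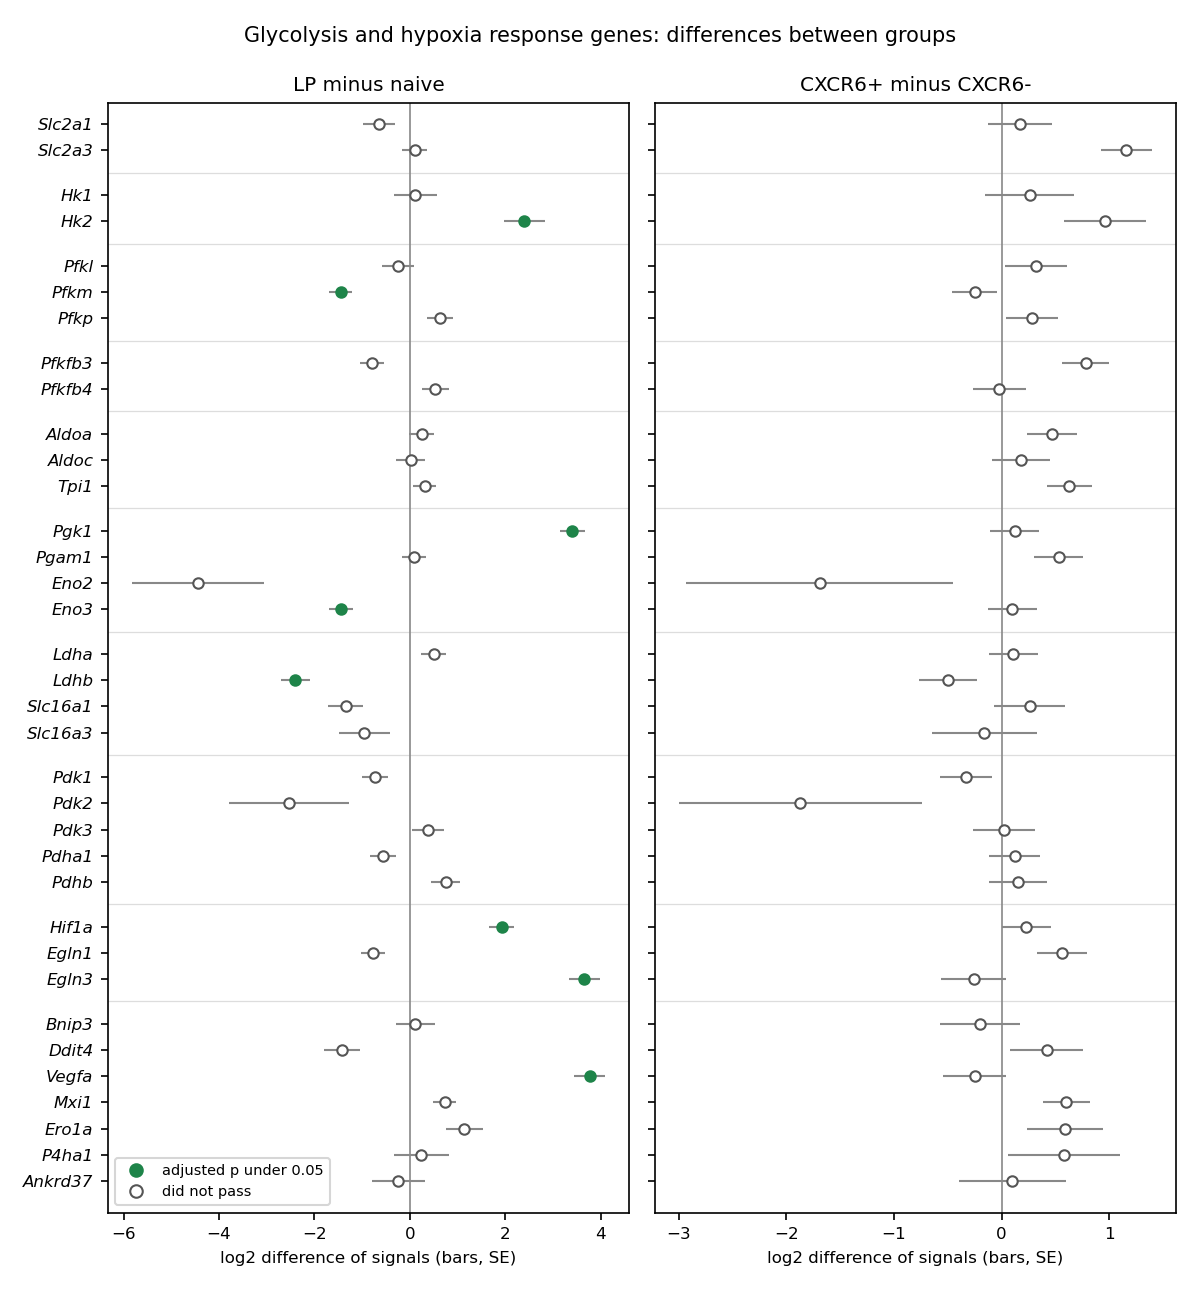
Log2 difference (horizontal axis) with its SE (bars) for each of the 35 genes, LP minus naive cells on the left and CXCR6+ minus CXCR6- cells on the right, in the same order by role. Filled points passed at an adjusted p under 0.05. On the left 8 points are filled, 5 to the right of 0 and 3 to the left, and on the right none is filled.

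The probe sets of a gene did not always give the same difference. The one used was chosen by its mean over 5 arrays, 4 of them LP, so the choice can favour probe sets that are bright in LP cells. The tests against naive cells use the same values. With the probe sets of each gene averaged, 3 genes of the set were higher and 5 lower. The 35 genes had 74 probe sets, of which 39 were not the one used, and 33 of those 39 had a mean signal of at least 1. Of these 33, 22 had a log2 difference from naive cells of the same sign as the probe set used and 11 had the opposite sign. With every probe set tested on its own, 8 probe sets of 6 genes were higher and 11 of 5 genes were lower in LP cells, against a background of 13.6% higher and 13.6% lower over 45037 probe sets. This setting was chosen after the values had been seen.

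Hif1a and Ldhb had the same sign on all of their probe sets. The log2 differences of Hif1a were 1.93, 1.52, 2.05 and 1.57, of which the first 2 passed, and those of Ldhb were -2.40, -3.54, -1.43 and -2.55, all of which passed. Pgk1 was higher on all 3 of its probe sets but by unequal amounts. The probe set used, an _x_at probe set, gave 3.41, a second of the same kind (120 to 158 in LP and 53.4 in naive cells) gave 1.32, and the third (86.2 to 137 and 72.3) gave 0.63 and did not pass, with an adjusted p of 0.187. The _x_at probe sets are those whose probes can also match other transcripts, and without probe sets of that kind Pgk1 did not pass (log2 difference 0.63, adjusted p = 0.148).

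Slc2a1 and Pdk1 were lower in LP cells on probe sets other than the one used. For Slc2a1 these were a probe set at 10.2 to 16 in LP and 47.5 in naive cells (log2 difference -1.91, adjusted p = 0.0352) and another at 3.85 to 9.46 and 31.6 (log2 difference -2.32, adjusted p = 0.0289). For Pdk1 the 3 others gave log2 differences of -3.54, -2.81 and -5.72, with adjusted p-values of 0.0169, 0.019 and 0.0232. The brightest of them was at 1.98 to 2.62 in LP and 27.1 in naive cells, so no LP array came near the naive array. All 4 probe sets of Pdk1 and all 3 of Slc2a1 thus had the same sign.

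For Egln3 and Vegfa the second probe set did not follow the first. The other probe set of Egln3 was at 1.30 to 2.27 in LP and 2.22 in naive cells (log2 difference -0.44, adjusted p = 0.489), and that of Vegfa was at 0.165 to 0.915 and 0.312 (log2 difference -0.17, adjusted p = 0.918). With the probe sets of a gene averaged, Egln3 still passed, with a log2 difference of 1.61 (adjusted p = 0.0428), and Vegfa did not, with 1.80 (adjusted p = 0.074). Aldoa had log2 differences of 0.25, -0.16, -0.50, -1.08 and 0.80 on its 5 probe sets, none of which passed. Among the phosphofructokinases, another probe set of Pfkl (1.66 to 3.32 in LP and 0.838 in naive cells) was higher, with a log2 difference of 1.44 (adjusted p = 0.0456), while the other probe sets of the gene gave -0.25 and 0.23. The 3′ to 5′ ratio of Gapdh given above also differed between LP and naive cells, and the part of RNA integrity in these differences between probe sets was not tested.

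**Figure D3:**
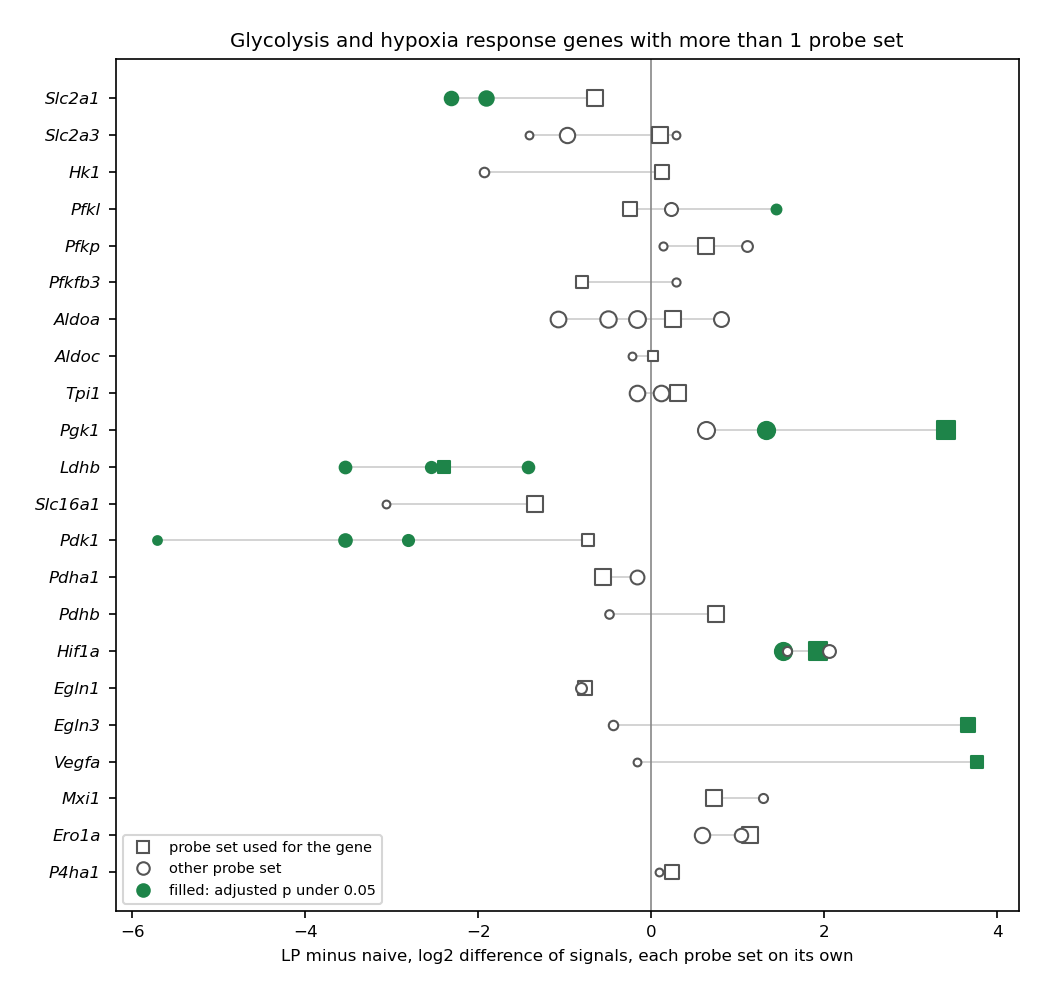
Log2 difference of LP from naive cells (horizontal axis) for every probe set of the 22 genes with more than 1 probe set. Squares are the probe sets used for the gene, circles the others, larger symbols have a higher mean signal, and filled symbols passed at an adjusted p under 0.05. The probe sets of Hif1a all lie right of 0 and those of Ldhb, Pdk1 and Slc2a1 all left of 0, while Egln3 and Vegfa have 1 probe set far to the right and 1 near 0.

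Between CXCR6+ and CXCR6- cells, no gene of the set passed the test. The largest differences toward CXCR6+ cells were those of Slc2a3, Hk2, Pfkfb3, Tpi1 and Mxi1, and the largest toward CXCR6- cells were those of Pdk2, Eno2, Ldhb, Pdk1 and Egln3. By limma, 0 of the 35 and 0 of all 18193 genes were called (0% of genes). At an unadjusted p under 0.05 there were 3 of the 35, all higher in CXCR6+ cells, beside 1191 of all genes (3.37% of genes higher and 3.18% lower). Both CXCR6+ arrays lay above both CXCR6- arrays for 12 of the 35 genes and below for 4, beside 25.1% and 14.3% of all genes. The mean of 25 of the 35 was higher in CXCR6+ cells, beside 57.5% of all genes, and the median log2 difference was 0.17, beside 0.08 over all genes.

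Slc2a3 had the lowest p of the set. Its CXCR6+ signals of 80.5 and 78.0 lay well above the CXCR6- signals of 39.8 and 31.6, a 2.23-fold difference (log2 1.16, SE 0.24, 95% interval 0.46 to 1.86, adjusted p = 0.626). A second probe set of the gene was at 42.6 and 44.4 in CXCR6+, 16.6 and 17.4 in CXCR6- and 53.1 in naive cells, with a log2 difference between the subsets of 1.36 (SE 0.24, adjusted p = 0.549). Both probe sets are of the kinds whose probes can match other transcripts, and both separate the subsets in the same direction, while the remaining 2 probe sets of the gene had mean signals of 0.291 and 0.255, below the array median. The other transporter, Slc2a1, had overlapping subsets (log2 difference 0.17, 95% interval -0.71 to 1.04).

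Hk2 had CXCR6+ signals of 32.3 and 37.6 above CXCR6- signals of 13.4 and 24, a log2 difference of 0.96 (SE 0.38, 95% interval -0.14 to 2.06, adjusted p = 0.761). Pfkfb3, at 8.38 and 9.53 against 5.40 and 5.02, differed by 0.78 (SE 0.22, interval 0.14 to 1.42, adjusted p = 0.707), and its other probe set by 0.23. Tpi1, at 60.3 and 59.7 against 40 and 37.6, differed by 0.63 (SE 0.21, interval 0.02 to 1.24, adjusted p = 0.753), and its other probe sets by 0.48 and 0.69. In these genes the subsets did not overlap on the arrays, and the adjusted p-values were far from the threshold. Mxi1 differed by 0.60 (SE 0.22, adjusted p = 0.761), with 45.6 and 48.0 against 32.7 and 29.2.

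In the other direction, Ldhb was at 2.42 and 2.12 in CXCR6+ and 2.75 and 3.70 in CXCR6- cells (log2 difference -0.50, SE 0.27, interval -1.28 to 0.28), and Pdk1 at 6.47 and 6.32 against 7.19 and 8.99 (log2 difference -0.33, SE 0.24, interval -1.02 to 0.36). The differences of Eno2 (-1.69, SE 1.24) and Pdk2 (-1.87, SE 1.13) rest on signals below the array median and have wide intervals, -5.26 to 1.88 and -5.10 to 1.37. Egln3 was at 27.8 and 27.7 against 40.3 and 27.3 (log2 difference -0.26, interval -1.11 to 0.59), so the subsets overlapped. Pgk1, Hif1a and Vegfa, which were far from naive cells, differed between the subsets by 0.12 (interval -0.54 to 0.78), 0.23 (interval -0.43 to 0.89) and -0.25 (interval -1.09 to 0.58).

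The 3′ to 5′ ratio of Gapdh was 2.81 and 3.98 on the CXCR6+ arrays and 4.19 and 6.96 on the CXCR6- arrays, so it separated the subsets too. The summed signal of the T cell markers was 546 and 609 in CXCR6+ and 467 and 401 in CXCR6- cells, and that of 11 fibroblast and smooth muscle markers was 103 and 165 against 126 and 157. Their part in the differences between the subsets was not tested.

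Each subset was also compared with the naive array, which both comparisons share. CXCR6+ cells had 5 of the 35 genes higher and 3 lower (28.6% of all genes passed, 13.2% higher and 15.3% lower), and CXCR6- cells had 4 higher and 4 lower (29.5%, 12.8% higher and 16.7% lower). Pgk1, Hif1a, Egln3 and Vegfa were higher and Pfkm, Eno3 and Ldhb lower in both. Each of 2 further genes passed against the naive array in 1 subset. Hk2 passed in CXCR6+ cells (log2 difference 2.88, adjusted p = 0.0286) and had 1.92 in CXCR6- cells (adjusted p = 0.055), and Pfkfb3 passed as lower in CXCR6- cells (-1.19, adjusted p = 0.0495) and had -0.41 in CXCR6+ cells. The direct test between the subsets did not pass for either gene. The other probe set of Pfkfb3 was at 1.23 and 1.27 in CXCR6+, 0.965 and 1.18 in CXCR6- and 0.949 in naive cells, so neither subset was lower there. With any 1 of the LP arrays left out, 0 genes passed in either of these comparisons.

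Related genes outside the set were listed by pathway and read the same way, against the 33.9% of all genes that passed between LP and naive cells. Each is read through 1 probe set, and any other probe sets of these genes were not compared. Of 23 other genes of glycolysis and gluconeogenesis, 3 were higher and 6 were lower in LP cells. Those that passed with the largest log2 values, which for Pklr rest on LP signals below the array median, were Pklr, a pyruvate kinase (0.521 to 0.828 in LP and 52.3 in naive cells, log2 difference -6.37, adjusted p = 0.0119), Adpgk, an ADP-dependent glucokinase (1.37 to 2.18 and 44.6, log2 difference -4.56, adjusted p = 0.0119), and Pck2, the mitochondrial enzyme that makes phosphoenolpyruvate (1.31 to 2.31 and 31.5, log2 difference -4.26, adjusted p = 0.0145). In all 3 the LP signals were at most 2.31 and the naive signals at least 31.5. Pkm, another pyruvate kinase of the list, was at 42.8 to 71.7 and 63.5 and did not pass (log2 difference -0.22, adjusted p = 0.555). The naive array also held more red blood cell signal, and its part in the difference of Pklr was not tested.

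Of 9 other genes of oxygen sensing, 2 were higher and 3 lower. Epas1, which encodes HIF-2α, was at 79.0 to 99.0 in LP and 8.02 in naive cells (log2 difference 3.54, adjusted p = 0.012). Arnt, the partner of both HIF-α subunits, was at 3.34 to 4.36 and 37.7 (log2 difference -3.33, adjusted p = 0.0119), and Vhl, the ubiquitin ligase subunit that removes them, was at 3.58 to 6.22 and 42.9 (log2 difference -3.06, adjusted p = 0.0171). Thus Hif1a and Epas1 were higher while their partner and their ligase were lower on the probe sets used. Of 22 other hypoxia targets, 5 were higher and 3 lower, led by Rora, a nuclear receptor (115 to 197 in LP and 10.2 in naive cells, log2 difference 3.81), Bhlhe40, a transcription factor of activated T cells (146 to 225 and 14.3, log2 difference 3.64), and Hmox1, the inducible heme oxygenase (0.833 to 1.37 and 8.79, log2 difference -3.04), with adjusted p-values of 0.012, 0.0119 and 0.0183.

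Of 15 genes of the tricarboxylic acid cycle, 1 was higher, Idh3a, a subunit of isocitrate dehydrogenase (55.2 to 83.0 in LP and 29.2 in naive cells, log2 difference 1.16, adjusted p = 0.0489), and the other 14 did not pass. Of 7 other genes of pyruvate dehydrogenase and pyruvate carriers, 1 was lower, Pdp2, a phosphatase that switches the complex on (2.22 to 4.42 and 11.3, log2 difference -1.91, adjusted p = 0.0317). Of 6 genes of the pentose phosphate pathway, 1 was lower, Rpia, the ribose phosphate isomerase (15.3 to 24.9 and 60.6, log2 difference -1.66, adjusted p = 0.0446). Of 18 genes of MYC, mTORC1 and AMPK signalling, 2 were higher and 5 lower, led by Max, the partner of MYC (0.173 to 2.12 and 60.3, log2 difference -6.48, adjusted p = 0.018), Slc7a5, a leucine transporter (4.37 to 6.07 and 27.8, log2 difference -2.44, adjusted p = 0.0195), and Prkaa1, a catalytic subunit of AMPK (3.70 to 4.63 and 17.2, log2 difference -1.98, adjusted p = 0.0185).

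**Figure D4:**
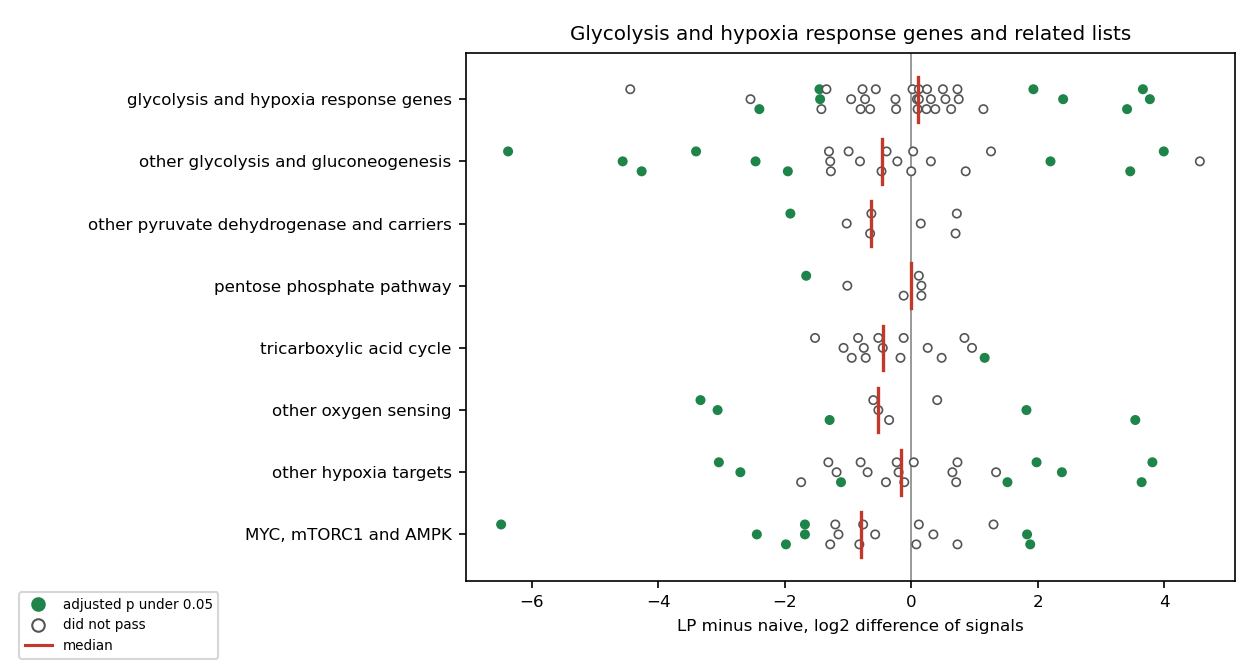
Log2 difference of LP from naive cells (horizontal axis) for each gene of the set and of 7 related lists (rows). Filled points passed at an adjusted p under 0.05 and red bars are the median of a list. The median of the glycolysis and hypoxia response genes lies at 0.10, that of the other glycolysis genes at -0.47 and that of the MYC, mTORC1 and AMPK genes at -0.79, and most lists hold filled points on both sides of 0.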

How the data were processed

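RNA of CXCR6+ (n = 2), CXCR6- (n = 2) and naive CD4+ T cells (n = 1) was measured on Affymetrix mouse genome GeneChips. The labels name 3′ IVT Express labelling, but poly-A labelling controls were near 0 on the naive array only (0.194 to 0.379). The labels call the arrays of a subset biological replicates, so the p-values cover the spread between arrays only, whatever its source. The authors deposited linear intensity values with a median of 1 per array. The methods name GeneSpring and the submitters' processing notes name RMA, but the values were neither on a log2 scale nor quantile normalized. The background correction used is not given in the sources used here. Precision is limited by the number of arrays.

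Of 45101 probe sets, 932 carried several gene symbols and 9211 none. Of those with 1 gene symbol, 13 were controls and were dropped, and the other 34945 were kept. The brightest probe set by mean signal stood for each of 18193 genes, of which 18032 matched RefSeq by Entrez ID. The 2 signals of 0 became 0.001, and all signals were log2 transformed without a filter. A 3-group model was fitted with limma 3.58.1 (R 4.3.3) using lmFit and eBayes. Tests were two-sided, with p-values adjusted by Benjamini-Hochberg over all genes and a threshold of 0.05. The 2 residual degrees of freedom come from LP arrays (prior degrees of freedom 1.678), so the spread of the naive array was taken to equal that of the LP groups. Intervals are at 95%. The model was also run on simulated data. These gave the naive array the spread of the LP arrays, so that run cannot show whether the naive array varies alike. Promoters were searched in Python 3.11.15, and plots were drawn with matplotlib 3.10.9.

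The genes of the set, the related lists and the marker lists were chosen with earlier results of these data known. All 38 genes are accounted for. Values on each array are given for genes that passed against naive cells or had the 5 largest differences in a direction, and for some others to complete a role. Of each related list, the genes that passed with the 3 largest absolute differences are named. Alternatives covered the choice of probe set (averaging them, or no _s_at or _x_at types), a filter on signals under the 40th percentile, quantile normalization, a pseudocount of 1, a floor of 1, robust fitting with a variance trend, the replicate number as a block, omission of each LP array in turn, and the test that the methods name. Testing every probe set on its own was added after the values were seen.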

Additional observations from a re-analysis of the deposited data

Results flagged for a closer look

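Slc2a3 and Pgam1 stood out because both CXCR6+ arrays lay above the naive array and both CXCR6- arrays below it. For Slc2a3, the transporter GLUT3, the log2 difference from the naive array was 0.68 in CXCR6+ and -0.48 in CXCR6- cells. For Pgam1, the phosphoglycerate mutase, these were 0.36 and -0.17. None of the 4 differences from the naive array passed, and the direct tests between the subsets did not pass (limma, adjusted p = 0.626 for Slc2a3 and 0.766 for Pgam1). The second bright probe set of Slc2a3 lay below the naive array in both subsets, at 42.6 and 44.4 in CXCR6+, 16.6 and 17.4 in CXCR6- and 53.1 in naive cells. The naive level rests on 1 array.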

How the results depend on the processing

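The 5 higher and 3 lower genes of LP against naive cells kept their direction under the alternatives that give 1 value per gene, and their number moved. Tested on their own, the other probe sets of Egln3 (-0.44) and Vegfa (-0.17) had the opposite sign. Counts of genes of the set that were higher and lower in LP cells were 3 and 5 when probe sets were averaged, 8 and 8 with the filter on low signals, 9 and 10 with the log2 of the signal plus 1, 9 and 9 with a variance trend, 5 and 6 when signals under 1 were raised to 1, 6 and 1 after quantile normalization, and 6 and 5 with every probe set tested on its own. The counts over all genes moved too. They were 1988 higher and 2578 lower of 18193 with averaging, and 2422 and 4421 of 10916 with the filter. Of 18193 genes they were 2817 and 5086 with the signal plus 1, and 3545 and 4757 with the trend. With the floor they were 1068 and 3321, and after quantile normalization 2772 and 2307. With any 1 LP array left out they lay between 0 and 3 higher and between 0 and 1 lower, and over all genes between 0 and 1938, of which 0 to 999 were higher and 0 to 939 lower. The labels do not say that a replicate number marks a shared origin, and over all genes the replicate differences of the subsets correlated by 0.019. Some genes outside the set shifted alike in both subsets, such as Krt8 (9.36 and 25.4 in CXCR6+, 10.3 and 29.6 in CXCR6-, replicates 1 and 2) and Jun (23.3 and 8.52, 29.3 and 5.04). With the number as a replicate block, 4 were higher and 1 was lower, among 3512 of all genes (1705 higher and 1807 lower), and 0 genes passed in either subset against naive cells. Hif1a (adjusted p = 0.0503), Pfkm (0.0606) and Eno3 (0.0659) lost their calls with this block.

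Against naive cells, CXCR6+ cells had 2 higher genes with the mean of probe sets, 8 higher and 6 lower with the filter, 11 higher and 8 lower both with the signal plus 1 and with the variance trend, 5 lower with the floor and 1 lower after quantile normalization. CXCR6- cells had 1 higher with the mean of probe sets, and 7 lower with the filter, 9 with the signal plus 1, 7 with the variance trend and 0 after quantile normalization. Over all genes, the calls of CXCR6+ cells numbered 3548 with the mean, 6350 with the filter, 7264 with the signal plus 1, 3840 with the floor and 4169 after quantile normalization. Those of CXCR6- cells numbered 3705, 6480, 7330, 3931 and 4168. These totals count both directions, of 18193 genes or, with the filter, of 10916. The totals with the variance trend are not given here, so its counts have no background beside them. With any 1 LP array left out the lowest and the highest count were both 0 in each subset. The floor left 1068 of all genes higher in LP cells. It also set Eno2 and Pdk2 to the same value on every LP array, so their calls with the floor rest on no spread. Between the subsets 0 genes of the set passed under any alternative, and the methods' t-test called 1 of all genes after Benjamini-Hochberg adjustment and 1283 before it, 5 of the set higher and 1 lower.

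Differences that changed sign were small or uncalled, and the cause was not tested. With the mean of probe sets, LP against naive became -0.50 for Slc2a3, -0.91 for Hk1, 0.48 for Pfkl, -0.14 for Aldoa and -0.10 for Aldoc, and CXCR6+ against CXCR6- became 0.04 for Pdk1. Without _s_at and _x_at probe sets Slc2a3 was -1.42. After quantile normalization, Pfkl was 0.38, Aldoa -0.02, Ldha -0.08 and Ankrd37 0.30. Leaving out 1 LP array gave ranges that crossed 0, of -0.08 to 0.32 for Hk1, -0.09 to 0.14 for Aldoc, -0.04 to 0.28 for Bnip3, -0.07 to 0.56 for P4ha1 and -0.55 to 0.06 for Ankrd37 against naive cells, and of -0.54 to 0.03 for Egln3 between the subsets. Quantile normalization moved the median of all genes from -0.136 to -0.004 and the share of higher genes among those called from 44.7% to 54.6%, and relative to the median of all genes the 5 higher genes differed by 2.07 to 3.91 and the 3 lower ones by -2.26 to -1.30. Pfkm (-0.85, adjusted p = 0.0622) and Eno3 (-0.83, adjusted p = 0.0658) then did not pass, nor did Hif1a (1.77, adjusted p = 0.0576) and Vegfa (1.80, adjusted p = 0.074) with the mean of probe sets. With the floor Hk2 lost its call (adjusted p = 0.0758), and Pgk1 lost its own when the _s_at and _x_at types were left out (0.63, adjusted p = 0.148).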
